A study of Rattus norvegicus with 6 samples.

Results

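The RNA-seq libraries of Nono-KO and WT H9c2 cells were searched for genes that were expressed in every WT library and nearly lost in every Nono-KO library. A gene needed at least 50 counts in each of the 3 WT libraries and at most 10 in each of the 3 Nono-KO libraries. Genes with a placeholder name, several gene families and the single genes Scd, Peg10 and Sgce were set aside by name. Among the 16319 genes of the count table, 6 met this rule: Egr3, Il1rn, Nr4a3, Nxf7, Psd4 and Sohlh2. The genes were thus chosen by the same Nono-KO and WT counts that are described here, so their levels are a description and carry no test.

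H9c2 is a myoblast line derived from embryonic rat heart. The Nono-KO cells were H9c2 cells transfected with the plasmid PX459, which carries Cas9 and a guide RNA against Nono, selected with puromycin and expanded as a monoclonal line. WT cells were H9c2 cells with an intact Nono gene, and the labels name pEGFP-N1 as the control plasmid. Each group had 3 libraries, and nothing in the labels says that they came from separately derived lines, so p-values measure only the spread between these libraries, and an effect of Nono loss and a property of the expanded clone cannot be told apart. The guide is shown because it targets the gene that defines the groups. The capitals are its target sequence in Nono, on chromosome X, and the lower-case letters are the cloning overhang.
Nono guide: caccgATTTCCTCGGCCTGTGACTG

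Nono is a nuclear RNA- and DNA-binding protein of the DBHS family, found in paraspeckles and known to act in transcription, splicing and the retention of RNA in the nucleus. Whether the 6 genes share a pathway was not tested. Egr3 and Nr4a3 encode transcription factors of the immediate early class, which many cell types switch on within minutes of a growth factor or stress signal and which then decay quickly. Il1rn encodes a secreted antagonist of interleukin-1, Psd4 an exchange factor for the small GTPase Arf6, Nxf7 a member of the family of nuclear RNA export factors, and Sohlh2 a transcription factor known in mice from early germ cells of ovary and testis.

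The libraries were of similar depth, with 17612958 to 18770188 counts in Nono-KO and 18138400 to 19253858 counts in WT. Levels are given in CPM, counts scaled to a common library size. Nono itself was at 6.38, 5.23 and 5.08 CPM in Nono-KO, against 365, 315 and 307 CPM in WT, and its log2 fold change was -5.89 (SE 0.13). Of 12028 genes tested, 1294 were higher and 2252 were lower in Nono-KO at an adjusted p under 0.01 and a log2 fold change beyond 1 in either direction, here called DEGs. The median log2 fold change of all genes tested was -0.05. Markers of other cell types were summed as well. Smooth muscle markers, 4 of 4 higher in Nono-KO at an adjusted p under 0.05, summed to 14130 to 15180 CPM in Nono-KO and 6338 to 7119 CPM in WT. Cardiomyocyte markers, 2 of 6 higher, summed to 157 to 184 CPM in Nono-KO and 32.4 to 109 CPM in WT, and fibroblast markers, 3 of 6 lower and 1 higher, to 25222 to 30093 CPM in Nono-KO and 34210 to 41827 CPM in WT. These 3 sums did not overlap between the groups, and neither did the endothelial and myoblast sums given next. The cardiomyocyte marker Nppa and the fibroblast marker Dcn had no more than 3 counts in any library. Of all genes tested, 38.1% were lower and 34.2% higher at an adjusted p under 0.05. Every Nono-KO library was below every WT library in 39.0% of them and above in 36.1%. The summed level of 5 endothelial markers was 0.760 to 1.27 CPM in Nono-KO and 2.94 to 4.45 CPM in WT, with Pecam1 and Kdr at no more than 3 counts in any library. That of 4 leukocyte markers was 28.1 to 33.0 CPM in Nono-KO and 31.8 to 44.8 CPM in WT, with Itgam at no more than 3 counts, and that of 4 epithelial markers was 136 to 180 CPM in Nono-KO and 153 to 172 CPM in WT. In each of the endothelial and leukocyte lists 1 marker was lower and 0 were higher. The leukocyte and epithelial sums overlapped between the groups, and no epithelial marker passed the test. The myoblast markers analysed, 5 of 8 listed, summed to 870 to 968 CPM in Nono-KO and 565 to 748 CPM in WT. Of these, 2 were higher and 0 lower. All libraries were of the H9c2 line, so these sums describe marker expression within that line. In bulk RNA, fewer cells that express a marker and less of its RNA per cell cannot be told apart. The part of these marker levels in the results was not tested.

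The 6 genes together had 102 counts in the Nono-KO libraries and 1912 counts in the WT libraries. All of them were weakly expressed even in WT, with mean levels of 3.33 to 10.0 CPM (scaled by the TMM factors of edgeR and not by gene length), where the median over the 9955 genes with at least 50 counts in each WT library was 32.8 CPM. In Nono-KO their means were 0.0752 to 0.557 CPM, and every Nono-KO library still held at least 1 count of each gene. Among the 1745 genes with at least 50 counts in each WT library and a mean WT level in this range, the median gene kept 84.1% of its WT level in Nono-KO, and 22 genes (1.26%), the 6 included, kept less than 15%. The median fitted log2 fold change of the 6 genes was -3.69. All 6 were lower DEGs, as were 18.7% of all genes tested. All 6 also had every Nono-KO library below every WT library, as did 39.0% of all genes tested, while 36.1% had every Nono-KO library above every WT library. Since the rule used this contrast, nothing is read from these counts.

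**Figure D1:**
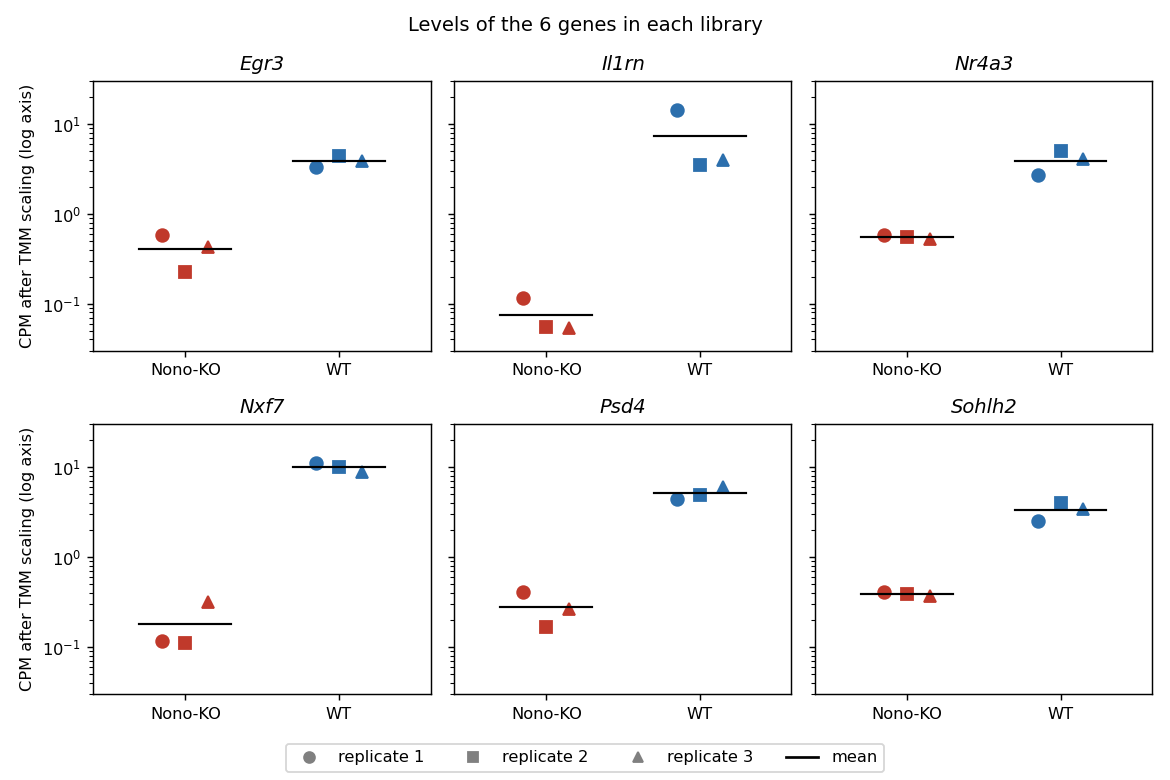
Level of each of the 6 genes in CPM after TMM scaling (log axis) in the 3 Nono-KO libraries, left, and the 3 WT libraries, right, with 1 symbol per library and a line at the group mean. The Nono-KO and WT libraries do not overlap for any of the 6 genes, and Il1rn in WT replicate 1, at 14.4 CPM, stands above the other 2 WT libraries.

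The product of Il1rn binds the interleukin-1 receptor without passing on a signal. Of the 6 genes Il1rn kept the smallest share of its WT level over all libraries, a place that rested on WT replicate 1. It had 2, 1 and 1 counts in Nono-KO, against 290, 66 and 72 counts in WT. WT replicate 1 was 3.83 times the mean of the other 2 WT libraries, and this spread, a coefficient of variation of 84.1%, was the widest of the 6 genes, where the median gene at such levels had 15.2%. Il1rn averaged 0.0752 ± 0.0362 CPM in Nono-KO and 7.32 ± 6.16 CPM in WT (SD, n = 3 each). Nono-KO thus held 0.984% of the WT level, with an exact 95% interval of 0.267% to 2.54% that covers counting error only, as do the other intervals here. The log2 fold change was -6.51 (SE 0.89), and without WT replicate 1 it was -5.55, when that of Nxf7 was -5.63. The lowest WT library still had 30.2 times the CPM of the highest Nono-KO library.

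Nxf7 was the most evenly expressed of the 6 genes in WT. It had 2, 2 and 6 counts in Nono-KO, against 223, 187 and 160 counts in WT. Its mean was 0.182 ± 0.118 CPM in Nono-KO and 10.0 ± 1.10 CPM in WT (SD, n = 3 each), a remaining share of 1.85% (interval 0.881% to 3.42%) and a log2 fold change of -5.71 (SE 0.31). The WT libraries differed by at most 1.25 times, and the lowest of them was 28.0 times the highest Nono-KO library. Nxf7 has paralogs in the same family, and the sources used here do not say how reads shared between such copies were counted.

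Psd4, which loads Arf6 with GTP at the plasma membrane, came next. It had 7, 3 and 5 counts in Nono-KO, against 89, 92 and 107 counts in WT. The groups were far apart, with the lowest WT library at 10.8 times the CPM of the highest Nono-KO library. Psd4 averaged 0.280 ± 0.122 CPM in Nono-KO and 5.10 ± 0.779 CPM in WT (SD, n = 3 each), so that 5.48% (interval 3.03% to 9.19%) was left, with a log2 fold change of -4.16 (SE 0.32).

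Egr3, a zinc-finger factor needed in mice for muscle spindles, and Nr4a3, an orphan nuclear receptor also called NOR-1, kept more of their WT level. Egr3 had 10, 4 and 8 counts in Nono-KO, against 67, 82 and 69 counts in WT, and Nr4a3 had 10 counts in each Nono-KO library, against 54, 93 and 73 counts in WT. Both genes reached the upper limit of the rule in Nono-KO. Egr3 averaged 0.410 ± 0.181 CPM in Nono-KO and 3.85 ± 0.526 CPM in WT (SD, n = 3 each), and 10.6% was left (interval 6.52% to 16.5%), with a log2 fold change of -3.22 (SE 0.32). Nr4a3 averaged 0.557 ± 0.0277 CPM in Nono-KO and 3.91 ± 1.15 CPM in WT, and 14.4% was left (interval 9.46% to 21.1%), with a log2 fold change of -2.79 (SE 0.31). The lowest WT library was 5.70 times the highest Nono-KO library for Egr3 and 4.59 times for Nr4a3, the narrowest gap of the 6 genes.

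Sohlh2, a basic helix-loop-helix factor, had 7 counts in each Nono-KO library, against 51, 75 and 62 counts in WT. Its mean was 0.390 ± 0.0194 CPM in Nono-KO and 3.33 ± 0.743 CPM in WT (SD, n = 3 each), a remaining share of 11.8% (interval 7.11% to 18.5%) and a log2 fold change of -3.07 (SE 0.31). The WT libraries lay 6.20 times or more above the Nono-KO libraries. Sohlh2 passed the WT limit by 1 count, in WT replicate 1. Ordered by the remaining share, from Il1rn over Nxf7, Psd4, Egr3 and Sohlh2 to Nr4a3, each gene's interval overlapped that of the next gene, and the differences between the 6 genes were not tested.

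WT replicate 1 took different places for different genes. It had the lowest CPM of the WT libraries for Egr3, Nr4a3, Psd4 and Sohlh2, at 0.811, 0.595, 0.814 and 0.680 times the mean of the other 2 WT libraries, and the highest for Il1rn and Nxf7, at 3.83 and 1.17 times. Egr3, Nr4a3 and Sohlh2 had the same order, with WT replicate 1 lowest and WT replicate 2 highest. The 6 genes together thus did not share 1 order of the WT libraries.

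Several genes lay close to the limits of the rule. Egr2, a close relative of Egr3, had 2, 2 and 3 counts in Nono-KO, against 46, 69 and 65 counts in WT, and missed the WT limit through WT replicate 1. With it, Arhgap6, Dpys, Smox, Sp4 and Tram1 had their lowest WT count between 40 and 49 with Nono-KO counts within the limit, and Tram1 had 0 counts in each Nono-KO library, against 52, 46 and 48 counts in WT. On the Nono-KO side, 8 genes had their highest count between 11 and 15, among them Bdkrb2, Dner, Fastkd2 and Rasa2. Rasa2 was the nearest of these, with 11, 9 and 5 counts in Nono-KO, against 59, 115 and 68 counts in WT. A further 8 genes were within both limits and were left out by name only, namely Cdh3, Kcnh3, Pcdh1, Pcdhgc3, Peg10, Scd, Sgce and Timp3, so that 14 genes of any name met the limits. Mean WT levels of these 8 genes ranged from 3.53 CPM for Kcnh3 to 77.3 CPM for Scd. Their remaining share in Nono-KO ranged from 0.157% for Peg10 to 12.6% for Kcnh3. The opposite pattern, at least 50 counts in each Nono-KO library and at most 10 in each WT library, was met by 32 genes under the same exclusion of names.

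**Figure D2:**
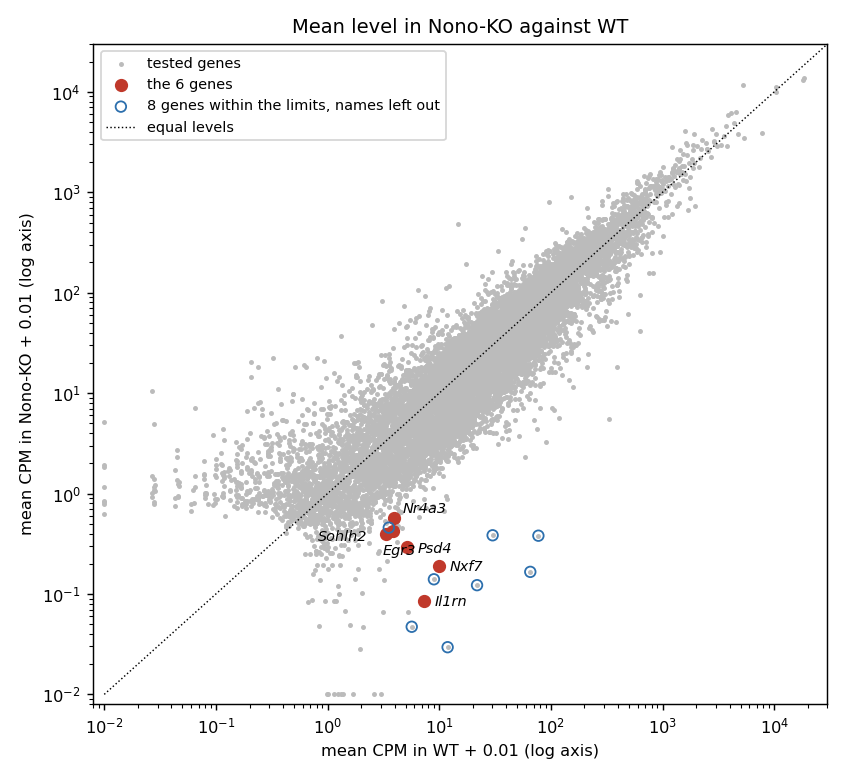
Mean level in Nono-KO (vertical) against WT (horizontal) in CPM plus 0.01, both on log axes, with 1 grey point for each of the 12028 genes tested and a dotted line at equal levels. The 6 genes, in red, lie between 3.33 and 10.0 CPM in WT and at no more than 0.557 CPM in Nono-KO, and the 8 genes within the same limits that were left out by name are circled in blue.

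The genes that work with Il1rn were examined next, in a list of interleukin-1 family ligands, receptors and adaptors. Of 14 such genes tested, Il1rn apart, 9 were lower and 2 higher in Nono-KO at an adjusted p under 0.05 over all genes tested (edgeR quasi-likelihood test with Benjamini-Hochberg adjustment, used for all adjusted p here), with a median log2 fold change of -0.57. Across all genes tested 38.1% were lower and 34.2% higher by this measure. Il1r1, the signalling receptor that the antagonist occupies, had 220, 218 and 239 counts in Nono-KO, against 764, 856 and 825 counts in WT, a log2 fold change of -1.78 (SE 0.11, adjusted p = 1.9e-07). Its co-receptor Il1rap had 64, 87 and 96 counts in Nono-KO, against 200, 459 and 385 counts in WT (log2 fold change -2.03, SE 0.30, adjusted p = 0.000122). In both receptor genes every Nono-KO library was below every WT library, as in 39.0% of all genes tested. The receptor chain for interleukin-33, Il1rl1, fell most in the list, with 75, 49 and 62 counts in Nono-KO, against 366, 1036 and 900 counts in WT (log2 fold change -3.57, SE 0.47, adjusted p = 0.000389). Il18rap, of the interleukin-18 receptor, fell by 1.45 on the log2 scale. The ligand Il1b had at most 1 count in any library and was too weak to test. The most abundant genes of the list were the kinase gene Irak1, which fell by 0.30 on the log2 scale (adjusted p = 0.00641, and 0.0538 without Nono-KO replicate 2), and Tollip, an inhibitory adaptor gene, which fell by 0.52.

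For Nxf7, the list held factors of nuclear mRNA export. Of 20 genes tested, 9 were lower, 1 was higher and 10 did not pass, with a median log2 fold change of -0.13, beside 38.1% lower and 34.2% higher among all genes tested. Nxf1, the main mRNA export receptor, had 1064, 1184 and 1182 counts in Nono-KO, against 1879, 1683 and 1825 counts in WT, a log2 fold change of -0.58 (SE 0.09, adjusted p = 8.19e-05). Nxf2, a paralog on chromosome X like Nxf7, had 23, 20 and 25 counts in Nono-KO, against 17, 27 and 18 counts in WT, with overlapping groups (log2 fold change 0.20, SE 0.29, adjusted p = 0.553). Nxf3, named after its values were seen, had 6, 4 and 6 counts in Nono-KO, against 30, 29 and 20 counts in WT (log2 fold change -2.20, SE 0.35, adjusted p = 0.000143). Thus 2 of the 3 other Nxf genes tested were lower. The strongest changes of the list at a WT level of at least 5 CPM were in Zc3h11a, Thoc2, Thoc1 and Ddx19b, which had log2 fold changes of -2.09, -1.64, -1.36 and -1.01 and were all lower. Thoc1 and Thoc2 are subunits of the THO complex, which joins export to transcription. Its other subunits in the list, named after their values were seen, did not move in 1 direction, since Thoc3 was higher (log2 fold change 0.35, adjusted p = 0.00266), Thoc5 and Thoc6 did not pass (0.09 and 0.23), and Thoc7 was lower at -0.30 (adjusted p = 0.0375), a call that ended under 6 other settings, at an adjusted p of up to 0.191. The most abundant genes, the helicases Ddx39a and Ddx39b, did not pass, at log2 fold changes of 0.11 and 0.04.

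For Egr3, the list held the other Egr factors, their Nab corepressors and genes of the serum response. Of 22 genes tested, 12 were lower, 4 higher and 6 did not pass, and 11 of the 12 were lower DEGs, with a median log2 fold change of -1.24, beside 38.1% lower, 34.2% higher and 18.7% lower DEGs among all genes tested. Egr1 had 206, 197 and 216 counts in Nono-KO, against 2188, 3322 and 3380 counts in WT, a log2 fold change of -3.78 (SE 0.20, adjusted p = 9.06e-08). Egr2, with the counts given above, had a log2 fold change of -4.55 (SE 0.39, adjusted p = 1.42e-06). Both Egr relatives in the table were therefore lower, as was Egr3. The AP-1 genes of the list moved in both directions. Fosl1 had 985, 901 and 909 counts in Nono-KO, against 5931, 6711 and 6768 counts in WT (log2 fold change -2.72), and Fosb had 111, 111 and 95 counts in Nono-KO, against 416, 668 and 852 counts in WT (log2 fold change -2.55). Junb fell by 1.88 and Elk4, a partner of serum response factor, fell by 2.02 on the log2 scale. In contrast Jund and Fosl2 were higher, at log2 fold changes of 1.42 and 0.47 (adjusted p = 1.26e-06 and 0.00378), and Jun did not pass, at 0.01 (adjusted p = 0.965), these 3 being named after their values were seen. Ier5, with Junb among the most abundant genes of the list, did not pass either, at 0.19. The counts do not say when the cells were last fed, and the part of culture timing in these immediate early genes was not tested.

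Of the 2 relatives of Nr4a3, 1 was lower and 1 did not pass, beside 38.1% lower and 34.2% higher among all genes tested. Nr4a1, or Nur77, had 274, 263 and 255 counts in Nono-KO, against 469, 505 and 496 counts in WT, a log2 fold change of -0.82 (SE 0.12, adjusted p = 8.07e-05). Nr4a2, or Nurr1, had 57, 68 and 81 counts in Nono-KO, against 75, 50 and 46 counts in WT, with overlapping groups (log2 fold change 0.34, SE 0.22, adjusted p = 0.179). Whether these changes differ from that of Nr4a3 was not tested.

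For Psd4, the list held Arf GTPases and their exchange factors. Of 16 genes tested, 8 were lower, 4 higher and 4 did not pass, with a median log2 fold change of -0.20, beside the same 38.1% and 34.2%. Cyth3, another exchange factor with a Sec7 domain, had 875, 963 and 1066 counts in Nono-KO, against 5965, 5425 and 5048 counts in WT, a log2 fold change of -2.43 (SE 0.08, adjusted p = 4.54e-09). Psd, the founding member of the Psd family, went the other way, with 948, 901 and 836 counts in Nono-KO, against 480, 362 and 398 counts in WT, or 49.96 ± 5.59 CPM in Nono-KO and 21.8 ± 2.28 CPM in WT (SD, n = 3 each, adjusted p = 3.66e-06 by edgeR). In neither gene did the groups overlap. Among all genes tested, 39.0% had every Nono-KO library below every WT library and 36.1% had every one above. Psd2 and Psd3 had at most 7 counts in any library and were not tested. Arfgef1 and Arfgef2, exchange factors of the Golgi, had log2 fold changes of -1.86 and -0.96 and were lower. Arf6, the substrate of Psd4 and named after its values were seen, fell by 0.66 on the log2 scale (adjusted p = 1.99e-05). The abundant genes Arf1 and Arf3 had log2 fold changes of 0.19 and 0.25 (adjusted p = 0.0331 and 0.0198), calls that ended under other settings, at adjusted p of up to 0.13 and 0.09.

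Sohlh2 has a single relative in the table. Sohlh1, which in mice works in the same germ cells, had 17, 18 and 16 counts in Nono-KO, against 3, 2 and 3 counts in WT, a log2 fold change of 2.69 (SE 0.41, adjusted p = 0.000101). This weakly expressed gene was thus higher in Nono-KO, opposite in sign to Sohlh2. Over all lists and families together, 75 genes other than the 6 were tested, of which 39 were lower, 12 higher and 24 did not pass, beside 38.1% lower and 34.2% higher among all genes tested.

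**Figure D3:**
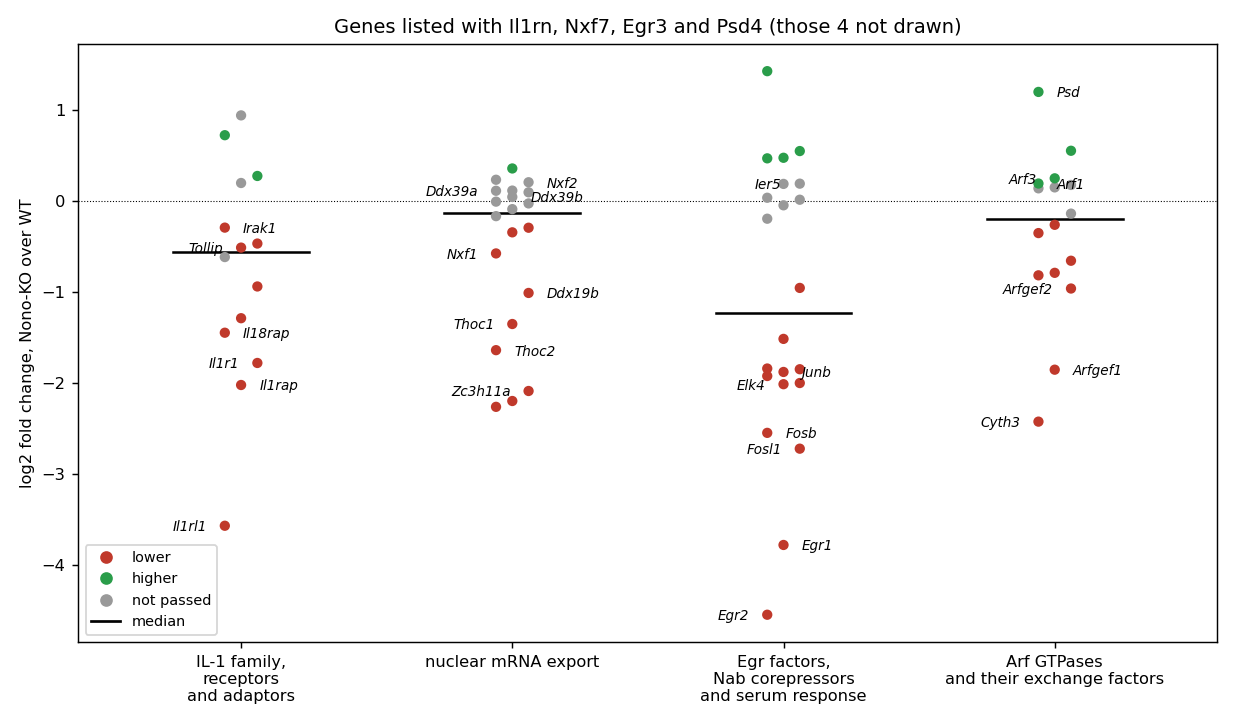
Log2 fold change, Nono-KO over WT, of each tested gene in the lists of interleukin-1 signalling, nuclear mRNA export, Egr and serum response, and Arf exchange, with red and green points for genes lower and higher at an adjusted p under 0.05 and a line at the median of each list. The lowest median, -1.24, is that of the Egr and serum response list, and Il1rn, Nxf7, Egr3 and Psd4 themselves are not drawn.

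The RefSeq genes of rat assembly GRCr8, a different assembly from that of the counts, were used here for order and distance only. By this order the 6 genes were on 5 chromosomes. Egr3 is on chromosome 15, Nr4a3 on chromosome 5, Nxf7 on chromosome X, Sohlh2 on chromosome 2, and Il1rn and Psd4 on chromosome 3. Il1rn and Psd4 are direct neighbours and are read in the same direction. The genes flanking this pair in the table, Il1f10 and Pax8, named after their values were seen, had at most 5 counts in any library and were not tested. Within WT, replicate 1 was the highest library for Il1rn and the lowest for Psd4. Among the 14 genes of any name within the limits there was 1 further adjacent pair, Sgce and Peg10 on chromosome 4.

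The nearest tested gene on each side of the 6 genes gave 10 neighbours, of which 6 were lower and 2 higher at an adjusted p under 0.05, beside the 38.1% and 34.2% of all genes. Of the 10 neighbours, 3 were lower DEGs, beside 18.7% of all genes tested. In GRCr8, Dclk1 was 32.4 kb from Sohlh2, but Armcx5 was 655.8 kb from Nxf7 and Spopl 957.5 kb from Il1rn. Bin3, after Egr3 and named after its values were seen, was lower at -0.25 (adjusted p = 0.0308). That call ended under 7 other settings, at an adjusted p of up to 0.14. Dclk1, a doublecortin-like kinase gene next to Sohlh2, had 164, 166 and 142 counts in Nono-KO, against 815, 1139 and 970 counts in WT, a log2 fold change of -2.56 (SE 0.16, adjusted p = 1.82e-07). The gene on the other side of Sohlh2, Spart, had a log2 fold change of 0.57 and was higher. Spopl, before Il1rn, had 51, 45 and 65 counts in Nono-KO, against 124, 158 and 120 counts in WT (log2 fold change -1.25, SE 0.20, adjusted p = 0.000166). Armcx5, after Nxf7, had a log2 fold change of -1.41 (SE 0.24, adjusted p = 0.000254). Zmat1, on the other side of Nxf7, did not pass, at -0.42.

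**Figure D4:**
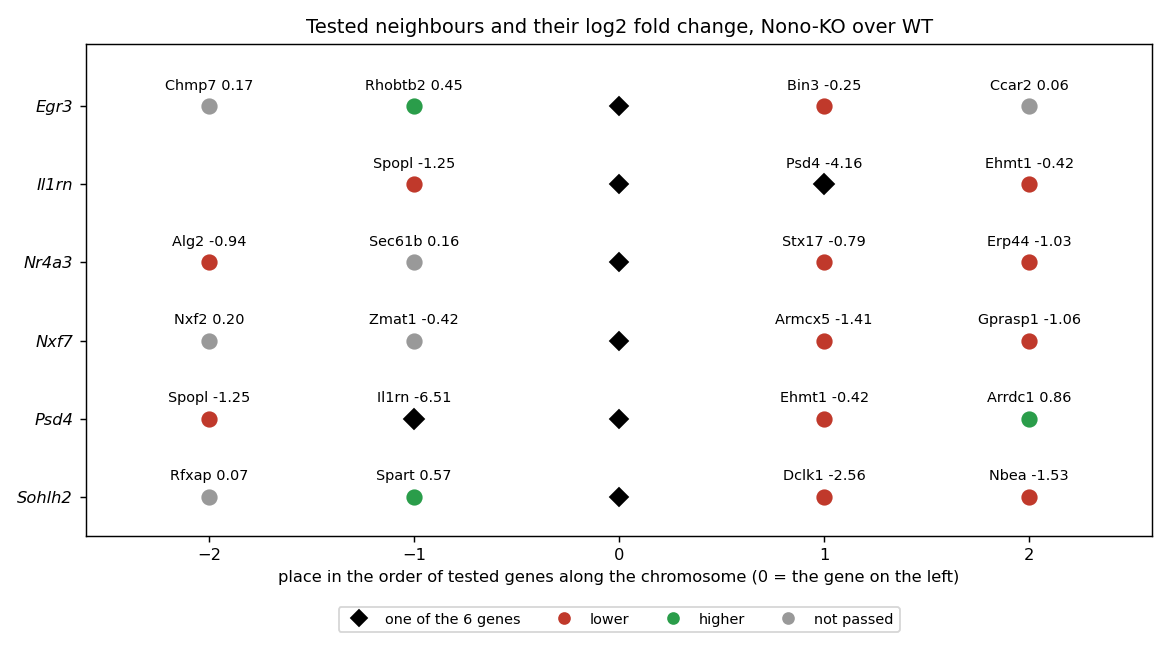
The 2 nearest tested genes on each side of each of the 6 genes, in chromosome order and not to scale, with the log2 fold change, Nono-KO over WT, beside each name and the call at an adjusted p under 0.05 as the colour. Of the 10 nearest neighbours 6 are lower, and the 2 neighbours of Sohlh2 are called in opposite directions.

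The promoters of Il1rn, Psd4, Nxf7 and Sohlh2 are shown because these 4 genes fell to a small share of their WT level and have an entry in the RefSeq promoter table. The 250 bases before each start site are given 5′ to 3′ on the gene's own strand, from assembly GRCr8. Capitals mark a TATA box (TATAAA, read on either strand) or an E-box (CANNTG, the class of site that basic helix-loop-helix factors such as Sohlh2 bind).
Il1rn, chr3:27520072-27520321, plus strand: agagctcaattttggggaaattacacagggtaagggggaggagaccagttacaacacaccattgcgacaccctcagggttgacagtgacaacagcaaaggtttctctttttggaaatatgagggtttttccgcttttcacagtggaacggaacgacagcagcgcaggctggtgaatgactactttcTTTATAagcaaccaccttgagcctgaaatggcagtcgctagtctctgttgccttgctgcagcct
Psd4, chr3:27535190-27535439, plus strand: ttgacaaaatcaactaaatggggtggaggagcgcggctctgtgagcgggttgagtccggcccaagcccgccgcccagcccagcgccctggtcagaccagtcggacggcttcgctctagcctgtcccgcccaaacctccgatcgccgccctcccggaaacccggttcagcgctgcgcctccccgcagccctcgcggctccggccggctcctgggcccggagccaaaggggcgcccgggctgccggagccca
Nxf7, chrX:102845697-102845946, minus strand: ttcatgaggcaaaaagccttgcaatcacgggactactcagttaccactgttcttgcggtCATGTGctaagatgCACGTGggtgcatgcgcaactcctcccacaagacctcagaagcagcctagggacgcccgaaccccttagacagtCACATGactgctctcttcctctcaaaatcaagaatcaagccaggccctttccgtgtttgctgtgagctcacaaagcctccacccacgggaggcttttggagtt
Sohlh2, chr2:141512160-141512409, plus strand: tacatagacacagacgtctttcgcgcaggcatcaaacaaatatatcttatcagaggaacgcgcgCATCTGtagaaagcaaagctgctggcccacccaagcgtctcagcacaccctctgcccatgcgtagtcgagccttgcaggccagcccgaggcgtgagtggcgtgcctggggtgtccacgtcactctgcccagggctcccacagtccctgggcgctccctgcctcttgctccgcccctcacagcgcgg

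The adjacent genes Il1rn and Psd4 differ in base composition at their start. The Il1rn promoter had 48.4% GC and a CpG observed over expected ratio of 0.412, against 71.6% GC and a ratio of 0.854 for Psd4. Over 11247 promoters of genes in the table the medians were 59.2% GC and a ratio of 0.705. Nxf7 had 52.8% GC and a ratio of 0.470, and Sohlh2 had 61.6% GC and a ratio of 0.735. The 4 promoters thus fell on both sides of the medians. The TATA box letters occurred in Il1rn, at -64 to -59 from the start site and in the reverse orientation, and in 7.49% of all promoters. An E-box occurred in Nxf7, at 3 places, and in Sohlh2, at 1 place, and in 58.3% of all promoters. None of the 4 held the letters of an AP-1 site (TGANTCA, 4.77% of all promoters), a cAMP response element (TGACGTCA, 2.66%), a TEAD site (GGAATG, 10.5%), an Egr site (GCGNGGGCG, 8.07%) or a CArG box (1.22%), all read on both strands. A match is a description of the letters, and a missing match says only that they are not in this window.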

How the data were processed

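Stranded mRNA-seq libraries of 3 Nono-KO and 3 WT samples were deposited as whole-number counts per gene by the authors, with no normalization. HISAT2, HTSeq, Trimmomatic and the build mRatBN7.2 appear in the submitters' processing notes, whereas the study's methods name another aligner and an older build. The sources used here give neither an annotation nor whether strand was used in counting, so reads from overlapping genes may not be separable.

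Groups were taken from the labels. Genes were filtered with filterByExpr, scaled by TMM and tested with the quasi-likelihood test of edgeR 4.0.16 (R 4.3.3) with robust dispersions, and p-values were adjusted by Benjamini-Hochberg over 12028 genes. CPM values were computed from effective library sizes. DESeq2 1.42.0, other scalings and filters, prior counts, thinned counts, a replicate block and leaving out each library were the alternatives. On counts simulated from these libraries, edgeR called 28, 47, 50 and 50 of 50 genes changed 1.5-, 2-, 4- and 8-fold, and 7 unchanged genes, of 11919 tested. The simulation changed only these genes, evenly in both directions, with dispersions from the fitted trend. In the real libraries 38.1% of genes were called lower and 34.2% higher, so the simulated figures hold for the simulated setting only. Shares left in Nono-KO have exact intervals from the summed counts at 95%.

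The 6 genes met a rule on these counts (at least 50 in each WT and at most 10 in each Nono-KO library). Placeholder names, several families and the single genes Scd, Peg10 and Sgce were left out by name. The members and lists were chosen with earlier results of these data known. Named list genes were up to 4 with the largest change at an adjusted p under 0.05 and at least 5 CPM, and the 2 most abundant, with all genes of a family and neighbours that were lower DEGs. Exceptions are stated. Gene order, distances and promoters came from RefSeq GRCr8, in which 15210 of the 16319 names were found. Promoters of 2 of the 6 genes, Egr3 and Nr4a3, are not printed.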

Additional observations from a re-analysis of the deposited data

How the results depend on the processing

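Of 177 alternative values computed for the results of the report, 167 kept their direction and stayed within their limits, 10 moved and 0 reversed. The log2 fold change of each of the 6 genes stayed within its spread over 15 settings, from -3.53 to -2.91 for Egr3, -6.92 to -5.35 for Il1rn, -3.01 to -2.59 for Nr4a3, -6.34 to -5.11 for Nxf7, -4.50 to -3.75 for Psd4 and -3.24 to -2.79 for Sohlh2. The number of genes meeting the rule moved with its limits. It was 1 at a limit of at most 5 counts in Nono-KO, 28 at most 20, 22 at a minimum of 30 counts in WT, 1 at 100, 3 on TMM-scaled counts (Il1rn, Nxf7 and Psd4), 32 for the mirrored rule and 14 with no name left out, by construction of each rule, and it stayed at 6 with the same genes after thinning to the smallest total. Without 1 library it was 6 to 9. The 2252 lower DEGs became 4578 with no limit on the fold change, and 2077 to 2425 without 1 library. List genes called lower were 35 to 41 and called higher 7 to 15 without 1 library, with the 7 found without Nono-KO replicate 1, against 12 in all libraries. Neighbours called lower were 5 to 6 and called higher 2 without 1 library, and 10 of 19 were lower with the 2 nearest genes on each side. The samples were treated as unpaired. Correlations of deviations between libraries of the same number were 0.045, -0.165 and -0.192, and that of Nono-KO replicate 3 with WT replicate 2 was 0.251. Deviations from means of 3 libraries constrain each other, so these values cannot show whether samples of the same number were handled together. With a replicate block there were 2267 lower DEGs, 38 list genes lower and 10 higher, and 5 neighbours lower and 2 higher. Levels of the 6 genes in Nono-KO rest on 4 to 30 counts over 3 libraries, and differences between the 6 genes were not tested.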
